A study of Zea mays with 19 samples.

Results

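miR164 is a conserved plant microRNA family, described here in embryos of germinating maize seeds. Its members were taken as every entry of the deposited miRNA table named as a miR164, from both arms of the hairpin. This gave 10 entries with 6 different sequences, out of 782 entries and 536 sequences in the whole table, and 537 of 41969 rows of the degradome table. Small RNAs were sequenced from the embryos of 5 seeds per sample in 2 inbred lines that share the origin Yuzong5, the early germinating Yu82 and the late germinating Yu537A. There are 18 small RNA libraries, 3 biological replicates in each of 6 groups. Embryos of Yu82 were collected 6 h and 53 h after imbibition, and those of Yu537A after 6 h, 53 h and 78 h. In the sixth group Yu537A received gibberellin (GA3) at 400 mg/L and was collected at 53 h. A protocol label mentions a GA3 pretreatment of Yu537A seeds but no groups, whereas the series design calls a single group treated, and the design was followed. A single degradome library, which captures the 5′ ends of cleaved transcripts, is assigned to no group.

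In plants, miR164 guides the cleavage of transcripts of NAC transcription factors of the NAM and CUC type. In Arabidopsis these factors set the boundaries between organs in the embryo and shoot meristem, and another miR164 target, NAC1, acts in auxin-dependent lateral root formation. Because a plant microRNA cleaves its target opposite a fixed position of the paired small RNA, the end left by cleavage can be read in a degradome library.

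The 5p sequences share 1 seed, bases 2 to 8, shown in capitals, and are printed because the contrast between the lines turns on the first pair:
zma-miR164a-5p: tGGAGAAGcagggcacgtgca
zma-miR164e-5p: tGGAGAAGcaggacacgtgag
zma-miR164f-5p_R-1: tGGAGAAGcagggcacgtgc
Counted from the 5′ end, with the base of zma-miR164a-5p first, zma-miR164e-5p differs from it by G13A, C20A and A21G, all outside the seed. The sequence zma-miR164f-5p_R-1 equals the first 20 bases of zma-miR164a-5p. The letters are those of the deposited table, which writes T for U.

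The sequence zma-miR164a-5p was listed for 5 hairpins, MIR164a on chromosome 2, MIR164b, MIR164c and MIR164g on chromosome 6 and MIR164d on chromosome 7, so its reads cannot be assigned to 1 gene. In contrast, zma-miR164e-5p was listed for 1 hairpin only, MIR164e at chr1:47137796-47137911 on the plus strand, in a genome build that is not given in the sources used. The 116-base hairpin of MIR164e is shown with both detected arms in capitals, since reads of zma-miR164e-5p are tied to this locus.
MIR164e hairpin: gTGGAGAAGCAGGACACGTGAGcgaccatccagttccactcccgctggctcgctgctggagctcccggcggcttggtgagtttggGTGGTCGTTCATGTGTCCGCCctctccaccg

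The 3p arm gave 3 sequences with different seeds, again in capitals, of which the first was listed in the early line:
zma-miR164b-3p_L+2: tCATGTGCccatcttctccacc
zma-MIR164e-p3: gTGGTCGTtcatgtgtccgcc
zma-MIR164c-p3: cTTCTCCAtcgggcacgcctc
MIR164b, the source of zma-miR164b-3p_L+2, lies at chr6:145727415-145727542 on the plus strand of the same unnamed build. The detected sequence differs from the deposited hairpin by G2C, with the hairpin's base first and the position counted from the 5′ end of the detected sequence, the changed base in capitals below. It was the single miR164 entry of 10 that did not lie unchanged in its hairpin, while 178 of 188 maize entries did (94.7%).
MIR164b hairpin, same stretch: tgatgtgcccatcttctccacc
detected sequence: tCatgtgcccatcttctccacc

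Over the 18 libraries miR164 had 3606 counts, of which 2340 were zma-miR164a-5p, 1163 zma-miR164e-5p and 61 zma-miR164b-3p_L+2. The remaining 3p sequences had 38 counts together, and the 5p arm held 97.3% of the family's counts. The deposited counts divide reads among sequences that share them, and zma-miR164f-5p_R-1 held only such fractions: in the late line at 53 h, replicate 2, its 1.67 and the 155.33 of zma-miR164a-5p add up to 157. It was therefore not treated as a separate molecule. The family took 0.0862% of miRNA counts on average, rank 25 of 61 numbered families. Library totals ran from 42963 counts in the early line at 53 h, replicate 3, to 818814 in the late line at 53 h, replicate 1. Such totals limit the precision of every value below, because the reads of zma-miR164e-5p ran from 8 to 277 per library. Fewer cells that make a microRNA and less of it per cell cannot be told apart in whole embryos.

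The family sum overlapped between most groups. Its level is given as CPM, counts scaled to the size of the library after TMM normalization of the family table, and was 856, 1315 and 704 CPM in the early line at 6 h and 748, 967 and 1556 CPM at 53 h. In the late line it was 657, 972 and 536 CPM at 6 h, 1313, 773 and 569 CPM at 53 h, and 655, 551 and 772 CPM at 78 h. With GA3 it was 559, 545 and 535 CPM, the narrowest spread of the 6 groups. The group means were thus 958.4 ± 318.2 and 1090 ± 418.3 CPM for early-line embryos, 721.5 ± 225.3, 884.9 ± 384.7 and 659.3 ± 110.6 CPM for late-line embryos, and 546.3 ± 11.8 CPM with GA3 (SD, n = 3). From the highest, these means run from the early line at 53 h, the early line at 6 h and the late line at 53 h to the late line at 6 h, at 78 h and with GA3, and in that order each group overlapped with its neighbours.

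**Figure D1:**
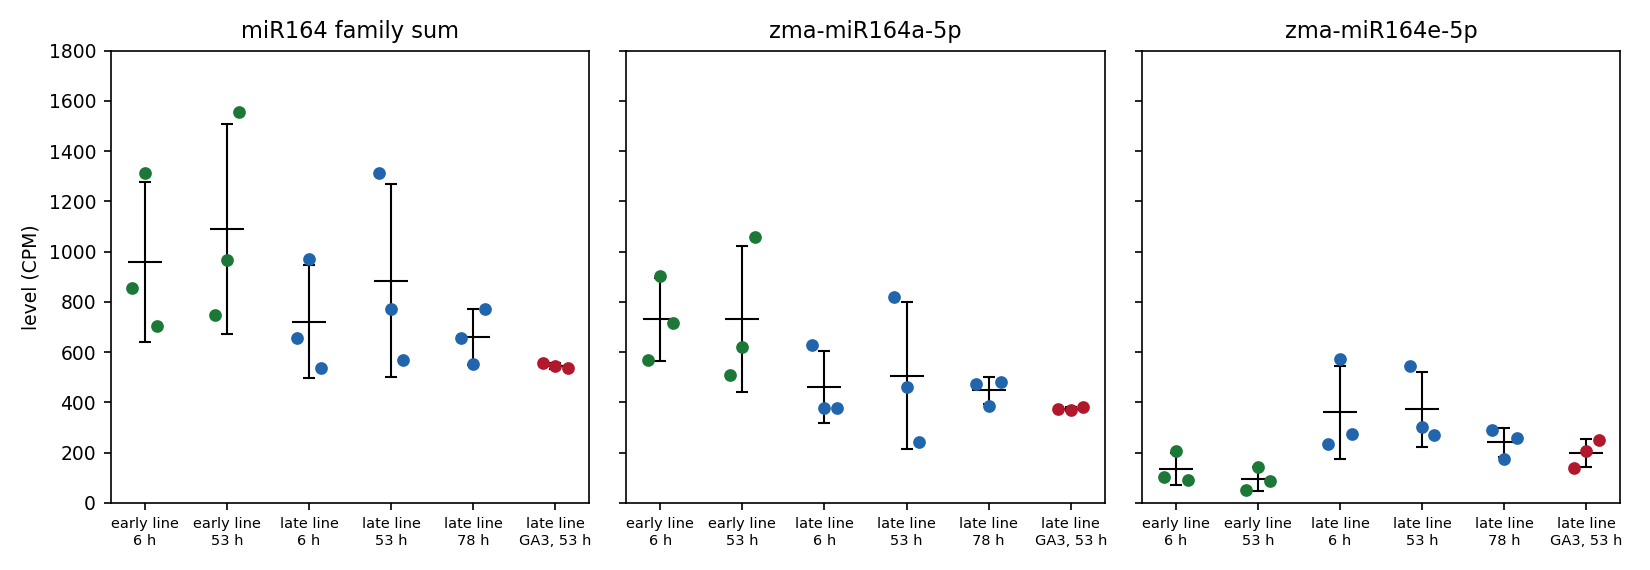
Level in CPM of the miR164 family sum, zma-miR164a-5p and zma-miR164e-5p in each library (points), with the group mean and SD (bars, n = 3); green is the early line, blue the late line and red the late line with GA3. The family panel is scaled by the family table and the other panels by the sequence table. The 6 early-line libraries lie between 51.5 and 207.1 CPM for zma-miR164e-5p, and the late-line libraries without GA3 at 6 h and 53 h lie at or above 235.4 CPM.

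The comparison of the lines at 1 time asks which small RNAs differ between the early and the late germinating line. Each type of germination is represented by 1 inbred line, so genotype and germination timing cannot be told apart. The family sum gave no difference past an adjusted p of 0.05 (edgeR quasi-likelihood test): the late line minus the early line was -0.41 on the log2 scale (SE 0.41, adjusted p = 0.506) at 6 h and -0.30 (SE 0.41, adjusted p = 0.629) at 53 h. For all families tested the test called 7.76% at 6 h and 8.62% at 53 h. Leaving out early-line replicate 3 moved the 53 h value to 0.05, so its direction rests on single libraries.

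The fitted values of its main sequences had opposite signs. zma-miR164a-5p was at 570.5, 901.6 and 717.8 CPM in the early-line libraries and 627.8, 379.1 and 378.1 CPM in the late-line libraries at 6 h, and the groups overlapped through late-line replicate 1. At 53 h it was at 510.0, 621.0 and 1060 CPM in the former and 819.3, 460.5 and 240.2 CPM in the latter, again overlapping. The differences were -0.67 (SE 0.47, adjusted p = 0.387) and -0.52 (SE 0.47, adjusted p = 0.442) on the log2 scale, neither past the threshold. With library totals alone the groups did not overlap at either time, the early line lying at 704.9 CPM or above and the late line at 509.3 CPM or below. In that scaling the median difference over all sequences was itself -1.01 at 6 h and -0.76 at 53 h. The share of all sequences without overlap was not computed for it.

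After TMM scaling, zma-miR164e-5p stood higher in each late-line library without GA3 than in each early-line library of the same time. At 6 h it was at 103.7, 207.1 and 89.7 CPM in the early line against 235.4, 572.9 and 272.2 CPM in the late line. At 53 h it was at 51.5, 143.7 and 88.4 CPM against 544.2, 300.1 and 270.3 CPM. Scaled by library totals alone, the lines overlapped at 6 h, where early-line replicate 2 was at 317.9 CPM and late-line replicates 1 and 3 at 169.8 and 226.6 CPM, and did not overlap at 53 h. Groups without overlap are common after TMM scaling, 27.7% of all 224 sequences tested at 6 h and 35.3% at 53 h. The fitted difference was 1.44 (SE 0.61, adjusted p = 0.145) at 6 h and 1.97 (SE 0.63, adjusted p = 0.0539) at 53 h, both short of the threshold. At 6 h the value was 0.57 (adjusted p = 0.551) with library totals alone and 0.62 (adjusted p = 0.53) without late-line replicate 2. The edgeR test called 6.7% of sequences at 6 h and 10.7% at 53 h.

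At 53 h the side of the threshold depended on the setting. DESeq2 gave 1.71 with an adjusted p of 0.022 and limma voom 2.09 with an adjusted p of 0.0365, while scaling by library totals alone gave 0.94 with an adjusted p of 0.237. Of the 224 sequences, DESeq2 called 21.9% and limma voom 30.8% in this comparison, against 10.7% for edgeR. Over 15 alternatives the value ran from 0.94 to 2.41 and the adjusted p from 0.022 to 0.253, and 4 of the 15 passed. The median over all sequences moved from 0.17 with TMM to -0.76 with library totals. Relative to that median zma-miR164e-5p differed by 1.80 with TMM and 1.70 with library totals, and zma-miR164a-5p by -0.69 and -0.98. Subtracting the median removes any shift that a change of scaling gives to all sequences alike. The closeness of these values between scalings is therefore largely built in and is not support for a difference. With library totals alone zma-miR164a-5p passed the threshold at 53 h, at -1.74 (adjusted p = 0.0335), a setting that called 11.2% of sequences. The 3 libraries with the lowest totals include replicate 3 of both lines at 53 h, and without them zma-miR164e-5p differed by 1.74 (adjusted p = 0.218).

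**Figure D2:**
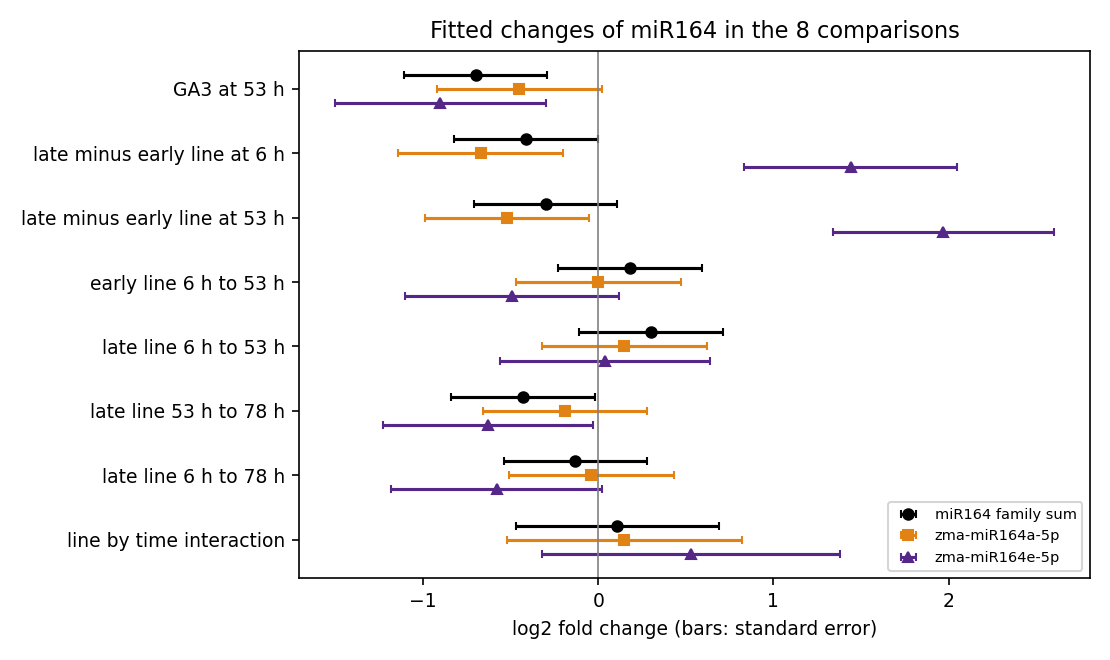
Fitted log2 fold change with its standard error for the family sum, zma-miR164a-5p and zma-miR164e-5p in the 8 comparisons. For the lines at 6 h and 53 h, zma-miR164e-5p lies at 1.44 and 1.97 while zma-miR164a-5p lies at -0.67 and -0.52, and no value passed an adjusted p of 0.05.

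The make-up of the 5p reads within a library needs no scaling between libraries, and was examined after the counts had been seen. In the early line zma-miR164e-5p held 15.4%, 18.7% and 11.1% of the reads of the pair at 6 h and 9.2%, 18.8% and 7.7% at 53 h. In the late line it held 27.3%, 60.2% and 41.9% at 6 h, 39.9%, 39.5% and 52.9% at 53 h, and 37.8%, 31.2% and 35.0% at 78 h. With GA3 it held 27.4%, 35.8% and 39.7%. Thus the highest early-line share, 18.8%, was below the lowest late-line share, 27.3%. How often the shares of other sequence pairs separate the lines in this way was not computed.

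The mean share was 15.1% ± 3.81 in the early and 43.1% ± 16.5 in the late line at 6 h, and 11.9% ± 6.02 against 44.1% ± 7.62 at 53 h (SD, n = 3). A two-sided exact permutation test gave p = 0.1 for each of these, the smallest that 3 against 3 can give, and 0.233 after adjustment over the 7 comparisons computed. That test therefore could not pass 0.05 for any share. Between 53 h and 78 h of the late line the mean share was lower by 9.43 points with no overlap, also at p = 0.1 in the unpaired exact test. After TMM scaling, 11.6% of single sequences did not overlap in this comparison, and other pairs were not examined. There the replicate numbers were taken to pair the samples, and the share was lower in 3 of 3 pairs, with differences of -2.1, -8.3 and -17.9 points (two-sided paired exact permutation p = 0.25, the smallest that 3 pairs can give). The late-line mean of 44.1% stood beside 34.3% ± 6.29 with GA3, where the libraries overlapped (exact permutation p = 0.2).

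**Figure D3:**
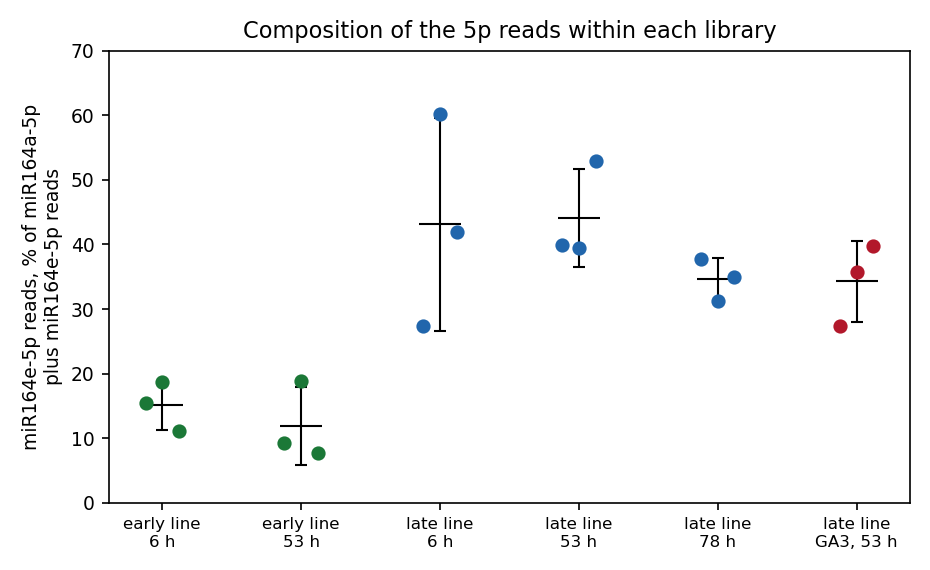
Reads of zma-miR164e-5p as a percentage of the reads of zma-miR164a-5p and zma-miR164e-5p together in each library (points), with the group mean and SD (bars, n = 3). The early-line libraries lie at or below 18.8% and the late-line libraries at or above 27.3%.

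The 3p sequences had at most 22 counts in a library, and the line in which they were listed differed between hairpins. zma-miR164b-3p_L+2 had 22, 8 and 11 counts in the early line at 6 h and 0, 11 and 9 counts at 53 h, and was listed at 0 in all 12 late-line libraries. Thus it was listed in 5 of 6 early-line and 0 of 12 late-line libraries. The late-line libraries hold 3967742 counts together and the early-line libraries 906864. Single libraries held from 99076 to 818814 counts in the late line and from 42963 to 205767 in the early line. Whether depth bears on the listing was not tested. Of all 527 sequences, 7 (1.33%) were likewise listed in 5 or 6 early-line libraries and no late-line library. In any number of libraries, 76 (14.4%) were listed in the early line alone and 200 in the late line alone. The edgeR test did not pass the threshold, with adjusted p = 0.126 at 6 h and 0.0857 at 53 h, while limma voom, which called 21.0% and 30.8% of all sequences, gave 0.012 and 0.0288. The replicate block gave 0.275 and 0.199, and DESeq2 an unadjusted p of 0.157 and 0.117 with no adjusted value. The sequence entered the test through its early-line counts alone, so none of these p-values is support for a difference between the lines. Its fitted fold change depends on the small count added to zeros and is not given.

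A listed 0 is not an absence. No miR164 3p sequence had a value between 0 and 8 counts, and the lowest value was exactly 8 for 169 of the 536 sequences and below 8 for 75. Against 8 counts in each late-line library, a floor chosen after the values were seen, the early-line mean at 53 h was at least 1.26-fold higher, and no bound above 1 could be given at 6 h. The bound at 53 h rests on early-line replicate 3, the library with the lowest total, without which the ratio was 0.639. It also holds only if values under 8 counts were the ones left unlisted. The mean over the 6 early-line libraries, 53.3 CPM, would give 8 or more counts in 9 of the 12 late-line libraries, from 4.08 to 27.1 counts. Both the bound and this projection start from the early-line counts through which the sequence entered the test. Neither is support for a difference between the lines. The detected sequence carries the G2C difference from the listed hairpin given above; whether the lines differ at that base was not tested.

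**Figure D4:**
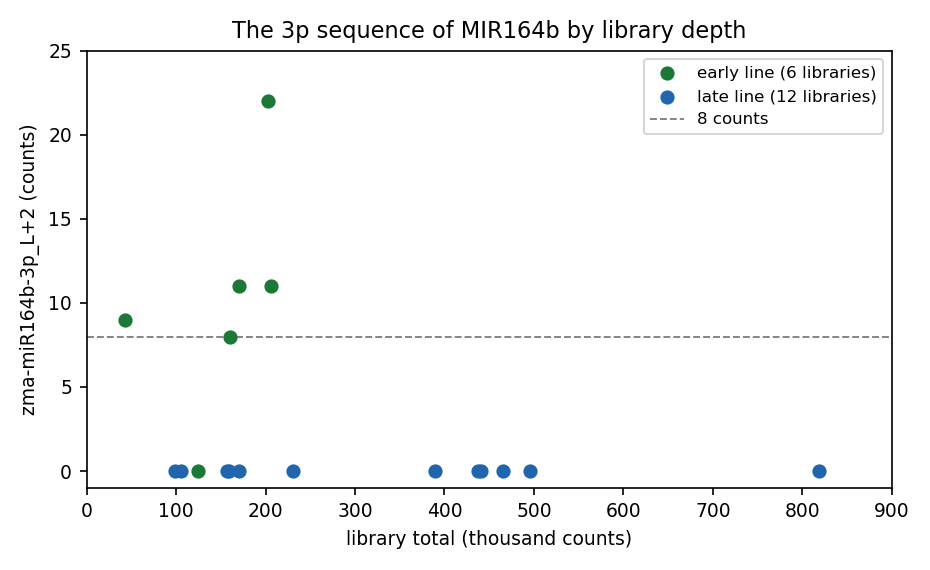
Counts of zma-miR164b-3p_L+2 against the library total, with 1 point per library and a dashed line at 8 counts. It was listed in 5 of 6 early-line libraries (green) and at 0 in all 12 late-line libraries (blue), up to a total of 818814 counts.

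The other 3p sequences appeared only in late-line libraries. zma-MIR164c-p3 had 21 counts in the late line at 53 h, replicate 1, and 9 at 78 h, replicate 1. zma-MIR164e-p3 had 8 counts in the late line at 53 h, replicate 2. The first of these libraries is the deepest of all, and neither sequence entered the test.

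The time comparisons ask how miR164 moves as germination proceeds, and no member passed the test in any of them. With standard errors of 0.41 or more on the log2 scale, a missed threshold does not show that levels were equal. Between 6 h and 53 h of the early line, where the test called 1.34% of sequences and 0% of families, the family sum moved by 0.18 (SE 0.41, adjusted p = 0.945) and zma-miR164e-5p by -0.49 (SE 0.61, adjusted p = 0.831). zma-miR164a-5p had nearly equal means at these times, 730.0 ± 165.9 and 730.5 ± 291.1 CPM. Between 6 h and 53 h of the late line, with 1.79% of sequences and 0.862% of families called, the family sum moved by 0.30 (SE 0.41, adjusted p = 1.0). There zma-miR164e-5p was at 360.2 ± 185.1 and 371.5 ± 150.3 CPM, a difference far within the spread.

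From 53 h to 78 h in the late line, with 0% of sequences and 0% of families called, the family sum moved by -0.43 (SE 0.41, adjusted p = 0.956) and zma-miR164e-5p by -0.63 (SE 0.60, adjusted p = 0.981). These fits are unpaired, and with the replicate block the values were -0.41 (SE 0.49) and -0.62 (SE 0.63). At 78 h zma-miR164e-5p was at 288.6, 175.9 and 259.2 CPM, overlapping the 53 h libraries. From 6 h to 78 h, with 5.8% of sequences and 0.862% of families called, the family sum moved by -0.13 (SE 0.41, adjusted p = 1.0) and zma-miR164a-5p by -0.04 (SE 0.47, adjusted p = 1.0). The change from 6 h to 53 h was also compared between the lines. That interaction was 0.11 (SE 0.58, adjusted p = 1.0) for the family sum and 0.53 (SE 0.85, adjusted p = 1.0) for zma-miR164e-5p, with 0% of sequences and 0% of families called.

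The GA3 comparison at 53 h asks what gibberellin changes in the late line. After TMM scaling all 3 libraries of the family sum with GA3, 535 to 559 CPM, lay below the 3 libraries without it, 569 to 1313 CPM, as 12.9% of families tested did not overlap in either direction. As a share of all counts the groups overlapped, at 0.0537%, 0.0581% and 0.0451% with GA3 and 0.0873%, 0.0684% and 0.0515% without. zma-miR164e-5p also lay below, at 140.3, 205.1 and 251.1 CPM against 544.2, 300.1 and 270.3 CPM, where 10.7% of sequences did not overlap. zma-miR164a-5p, at 371.5, 367.5 and 381.5 CPM, lay inside the range without GA3. The fitted changes were -0.70 (SE 0.41, adjusted p = 1.0) for the family, -0.90 (SE 0.60, adjusted p = 1.0) for zma-miR164e-5p and -0.45 (SE 0.47, adjusted p = 1.0) for zma-miR164a-5p. The edgeR test called 0% of sequences and 0% of families in this comparison, with 8 sequences and 4 families at an unadjusted p under 0.05, none of them miR164. The line and GA3 comparisons at 53 h share the late-line libraries, of which replicate 1 was the highest for both 5p sequences. Without that replicate the change with GA3 was -0.26 for the family, -0.52 for zma-miR164e-5p and 0.13 for zma-miR164a-5p. With library totals alone the family changed by -0.40, and without GA3 replicate 1 zma-miR164e-5p by -0.50.

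The degradome table paired miR164 with transcripts in 537 rows, 120 of them with a detected cleavage end. Categories run from 0 to 4, and in the usual scheme 0 marks the single highest peak of a transcript. Of the 120, 57 were in category 0, 20 in category 2 and 43 in category 4, the last with 1 read each. Category 0 held 47.5% of the detected miR164 rows against 20.8% of those of other small RNAs, and rows of transcripts from 1 locus share their reads. The same end was also listed again for different 5p sequences, with 18 category 0 rows for zma-miR164a-5p, 19 for zma-miR164e-5p and 20 for zma-miR164f-5p_R-1. These rows are therefore not separate ends, and repeats among other small RNAs were not counted. Every detected end lay opposite base 10 of the small RNA, counted from the end of the deposited alignment, against 89.1% over all detected rows. That match may have been fixed by the authors' search for sites, and it is not read as support for cleavage. Counted as transcript and position, there were 38 sites in categories 0 to 2 and 20 in category 0, the latter on 4 loci with maize gene IDs and 2 assembled loci. The 38 include category 2 sites on Zm00001d034701 and MSTRG.6950 that were listed for zma-miR164f-5p_R-1 alone.

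In the authors' deposited table, the 4 maize gene IDs carry the annotation DNA binding, and no gene name was paired with them in the sources used here. Zm00001d014405 had 21 reads at position 796 of its transcript, with an alignment penalty of 2 and the authors' p of 0.013 for zma-miR164a-5p. This site was not listed for zma-miR164e-5p. Zm00001d003414 was the reverse, with 5 reads, a penalty of 3.5 and the authors' p of 0.0212 for zma-miR164e-5p, and no listing for zma-miR164a-5p. Both also were listed for zma-miR164f-5p_R-1, with the authors' p of 0.0153 and 0.151.

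The remaining loci were listed for each of the 5p sequences. Zm00001d050893 had the most reads, 55 raw and 18.3 after the authors' normalization, and shared them with the assembled locus MSTRG.23590, with the authors' p of 0.141 for zma-miR164a-5p and 0.146 for zma-miR164e-5p. Zm00001d016950 had 8 raw reads and 0.8 normalized, and the assembled locus MSTRG.30397 had 7 to 11 raw reads, at the same 2 authors' p. No small RNA outside the family was listed at these category 0 sites. The 2 loci listed for 1 of the main sequences were those with the lowest authors' p.

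**Figure D5:**
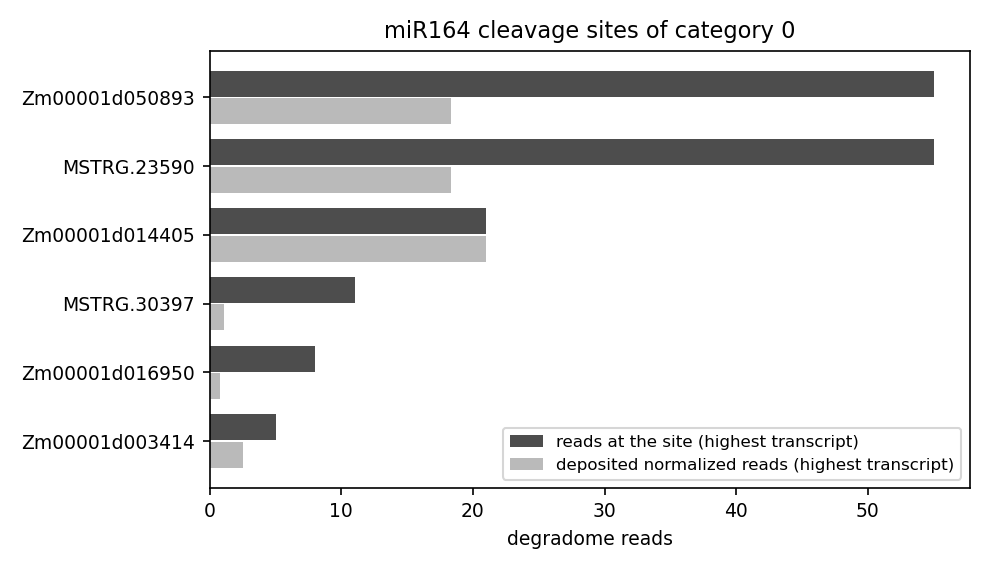
Degradome reads at the category 0 sites of miR164 by locus, as deposited (dark bars) and after the authors' normalization (light bars), each for the transcript with the most reads. Zm00001d050893 and MSTRG.23590 show the same 55 reads, and Zm00001d014405 keeps its 21 after normalization.

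In category 2, the assembled locus MSTRG.30397 had a further site with 9 reads at position 1097, listed for each of the 5p sequences at the authors' p of 1.0. zma-MIR164c-p3 was listed on the assembled locus MSTRG.41171 with 11 reads, and zma-miR164f-5p_R-1 on Zm00001d034701 and MSTRG.6950 with 2 to 6 reads, at the authors' p of 0.8 and 1.0 respectively. zma-miR164b-3p_L+2 had 5 rows and zma-MIR164e-p3 26 rows, none with a detected end. The library belongs to no labelled group, so the sites cannot be set against the levels of either line.

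Other conserved families act on organ boundaries, lateral organs and auxin-guided growth, and 8 of them were followed: miR160, miR166, miR167, miR171, miR319, miR390, miR393 and miR396. All 8 were tested. In the late line minus the early line at 53 h, 1 of the 8 was higher and 0 lower, beside 8.62% called over all families, with a list median of 0.49 against -0.06 over all families. That family was miR393, which targets the TIR1 and AFB auxin receptors, at 1.82 (SE 0.44, adjusted p = 0.0155). Its value ran from 1.13 to 2.14 over 14 alternatives and missed the threshold in 6, with an adjusted p of 0.108 without early-line replicate 3 and 0.189 without the 3 libraries of lowest total. In the same comparison miR390 lay at -1.99 (SE 0.62, adjusted p = 0.058), miR160 at -0.45 and miR171 at -0.26, while the rest of the 8 had positive values. The list thus held values in both directions. None of the 8 passed in the other 7 comparisons. Of miR2118, miR2275 and miR482, chosen as possible markers of reproductive tissue, 2 were tested and 0 passed. That does not mean absence. miR2118 had reads in every library except the late line at 6 h, replicate 1, from 14 counts up to 206 in the early line at 53 h, replicate 1. It therefore did not serve as a marker of another tissue here. Its late line minus early line value at 53 h was -2.68 (SE 0.99, adjusted p = 0.0972). miR482 had 0 counts in every library at 6 h, so its comparison of the lines at 6 h and its interaction carry no information.

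Among 106 sequences whose mean reached 100 CPM, those most like the miR164 family sum over the 18 libraries were bdi-MIR444d-p5_1ss2GA (Pearson r = 0.55 of log2 CPM), mdm-miR171a (0.54), and mtr-miR159a_1ss21AT, zma-miR390a-5p and gma-miR6300_R+6 (0.50 each). The next sequence also reached 0.50, so the order is not sharp. The libraries share their scaling and depth, and these are descriptions with no test.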

How the data were processed

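Members, lists and tests were chosen with earlier results of these data known. The deposited miRNA table gives expected counts, in which the authors divided reads over precursor entries. A second set of columns, a signal made by the authors, is the expected count multiplied by 1 number per library and was not used. In the degradome table the authors deposited read counts per site, a normalized signal, a p-value, an alignment score written as a penalty, and another measure, the cleavage category. The aligner and the genome build were not given in any source used. Some lines of both tables were empty and are not analysed here.

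Entries of 1 sequence were summed and rounded. Before rounding 85.1% of sums above 0 were whole (within 0.01). Of the 536 sequences, 9 with values equal to those of another sequence and reads in 2 or more libraries were kept once, leaving 527. The minimum of 2 libraries was added after the data were seen. Counts were tested with edgeR 4.0.16 in R 4.3.3 (TMM, filterByExpr with min.count 10, 1 mean per group over 18 libraries, two-sided quasi-likelihood F test). The adjusted p is the Benjamini-Hochberg value over 224 sequences or 116 family rows, with a threshold of 0.05. Sequences and families were scaled separately, so their CPM do not add up. Alternatives used RLE, library totals, no filter, DESeq2 1.42.0, limma 3.58.1 voom, the compared groups only, a replicate block and each library left out. The script was tested on simulated counts. The rest was done in Python 3.11.15 (scipy 1.17.1, pandas 2.3.3). All miR164 sequences are named, with sites of category 0 to 2, related families that passed, and the 5 sequences most like the family sum. The fit without the 3 libraries of lowest total and the alternatives for miR393 were added after seeing the data, as were the values by library total, the listing of sequences by line and the paired test of shares. No molecular identifiers are described, so depth speaks for counting error only.

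The labels do not say whether equal replicate numbers belong together. Only between 53 h and 78 h of the late line did the deviations of all 3 pairs with equal numbers correlate above 0.1 (0.451, 0.187 and 0.307), and there the numbers were taken to pair the samples. How often unpaired libraries reach such correlations was not computed, so this pairing is an assumption.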

Additional observations from a re-analysis of the deposited data

How the results depend on the processing

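Depth limits all of these values, with 24 to 417 counts of zma-miR164a-5p and 8 to 277 of zma-miR164e-5p per library. The family sum passed the threshold in 0 of 118 alternative fits (lowest adjusted p 0.0877). Its direction turned in 4 comparisons, and the cause was not tested. With 1 library left out, it ran from -0.45 to 0.09 between lines at 53 h, from -0.16 to 0.26 over time in the early line, from -0.31 to 0.21 in the late line (6 h to 78 h) and from -0.06 to 0.77 for the interaction. Without the 3 libraries of lowest total, chosen after seeing the data, the lines at 53 h gave 0.14. The interaction gave -0.17 with library totals and -0.14 without the filter.

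With 1 library left out, zma-miR164a-5p ran from -0.47 to 0.13 with GA3, from -0.08 to 0.42 (late line, 6 h to 53 h), from -0.32 to 0.18 (53 h to 78 h), from -0.16 to 0.28 (6 h to 78 h) and from -0.15 to 0.62 (interaction). In the same way zma-miR164e-5p ran from -0.13 to 0.76 (late line, 6 h to 53 h) and from -0.75 to 0.02 (6 h to 78 h), and zma-miR164b-3p_L+2 from -1.07 to 0.38 (early line, 6 h to 53 h), where library totals gave 0.33. For zma-miR164a-5p from 6 h to 78 h the value was 0.10 with RLE and with DESeq2, 0.16 with library totals, 0.08 with voom and with the largest entry per sequence, and 0.28 without the 3 shallowest libraries. From 53 h to 78 h RLE gave 0.02, and the interaction with library totals gave -0.27. For zma-miR164e-5p from 6 h to 53 h in the late line, voom gave -0.01 and leaving out the 3 shallowest libraries -0.09. The cause was not tested. The replicate block gave 2.08 (adjusted p = 0.0692) for zma-miR164e-5p between the lines at 53 h and changed no call of a miR164 member. The 38 degradome sites became 20 with category 0 or 1 only and 3 with the authors' p at most 0.05, because these settings admit fewer sites.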
